A study of Homo sapiens with 6 samples.

Results

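Constitutive proteasome subunits were examined in the human cell line MOLM-14, which was derived from acute myeloid leukaemia and carries an MLL-AF9 rearrangement. The members are the genes whose probe sets map to 1 gene with a symbol of PSMA, PSMB, PSMC, PSMD or PSMF and a number, together with PSME3, PSME4, POMP and ADRM1. The interferon-inducible catalytic subunits PSMB8, PSMB9 and PSMB10, antisense genes and pseudogenes were left out. In all, 36 of the 19775 genes measured were members. They were defined by name and not by a cut on any measured value, but with earlier results of these data known. The treated group held 3 samples kept for 24 h with 10 nM cortistatin A (CA), a natural product that blocks CDK8 and its paralogue CDK19, the kinases of the Mediator complex. The control group held 3 samples kept for 24 h in the vehicle DMSO. Both groups are untransduced cells of the same line, plated in wells, and each sample was hybridised to 1 Affymetrix U133 Plus array. Nothing in the labels says that the wells were separate experiments, so the p-values measure the spread between these wells, which may be technical.

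The 26S proteasome degrades ubiquitin-tagged proteins. Its 20S core is a barrel of outer alpha rings, which gate the entrance, and inner beta rings, which carry the proteolytic sites, and its 19S cap binds ubiquitin, unfolds the substrate with a ring of ATPases and removes the ubiquitin chains. In myeloid and other blood cells, part of the core carries inducible catalytic subunits in place of the constitutive ones, and this form is known for making peptides for antigen presentation. When proteasome activity is short, the transcription factor NFE2L1 is known to raise the genes of nearly all subunits together, and the comparison here asks how far their transcripts move when the Mediator kinases are inhibited.

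Among the constitutive subunits, the transcripts that changed rose, and by little. After CA, 5 of the 36 members were higher and 0 lower at an adjusted p under 0.05, against 6.64% higher and 4.49% lower of all genes by limma with Benjamini-Hochberg adjustment. The 5 were PSMA5 and PSMA2 of the alpha ring, PSMB2 of the beta ring, and PSMD2 and ADRM1 of the 19S base, with rises of 12.4% to 18.2%. At an unadjusted p under 0.05, 13 members were higher and 0 lower, where 13.6% of all genes were higher and 11.7% lower. The share of members called higher was 13.9%. Member signals were high, apart from that of PSMA8, with means of 9.03 to 13.53 on the log2 scale. Among the 4844 genes whose mean log2 value reached 9, a level chosen after the values were seen, 12.3% were called higher and 8.38% lower. At an adjusted p under 0.05, the share of members called higher thus lay close to that of genes at or above this level. That set was not matched to the members for signal. At an unadjusted p under 0.05, 22.3% of those genes were higher and 19.2% lower, against 13 and 0 of the 36 members. When limma moderated the variance along intensity, with robust estimation, 41.7% of the members were called higher, against 23.6% of those genes.

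Most changes lay on the upper side of 0, called or not. The change was above 0 in 28 members and below 0 in 8 (77.8% above), against 48.8% above 0 of all genes and 50.7% of the genes at or above that level. The median change of the members was 0.07 on the log2 scale, against -0.00336 over all genes. In 22 members (61.1%) the CA values all lay above the DMSO values, where this held for 16.6% of all genes and 31.2% of those at or above that level. In 4 members (11.1%) they all lay below, against 15.2% of all genes and 28.2% at or above that level, and in the other 10 the groups overlapped. These counts describe genes read on the same 6 arrays, which are not independent of each other, and no test was run over the list.

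**Figure D1:**
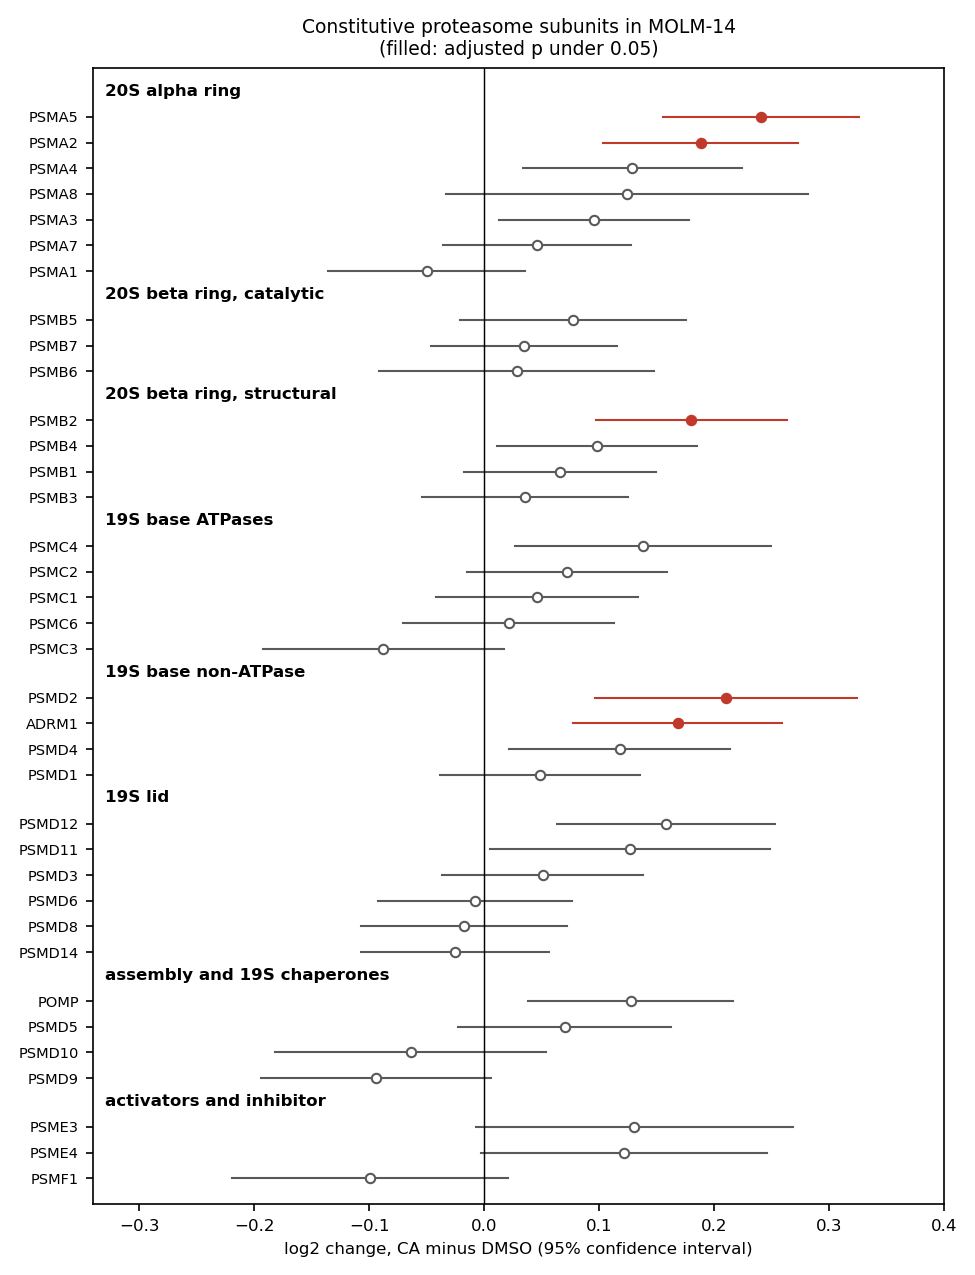
Log2 change (CA minus DMSO, horizontal axis) of each of the 36 members with its 95% confidence interval, grouped by place in the complex; filled red points are the 5 members called at an adjusted p under 0.05. Most points lie between 0 and 0.2, and the 8 below 0 all have intervals that reach 0.

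**Figure D2:**
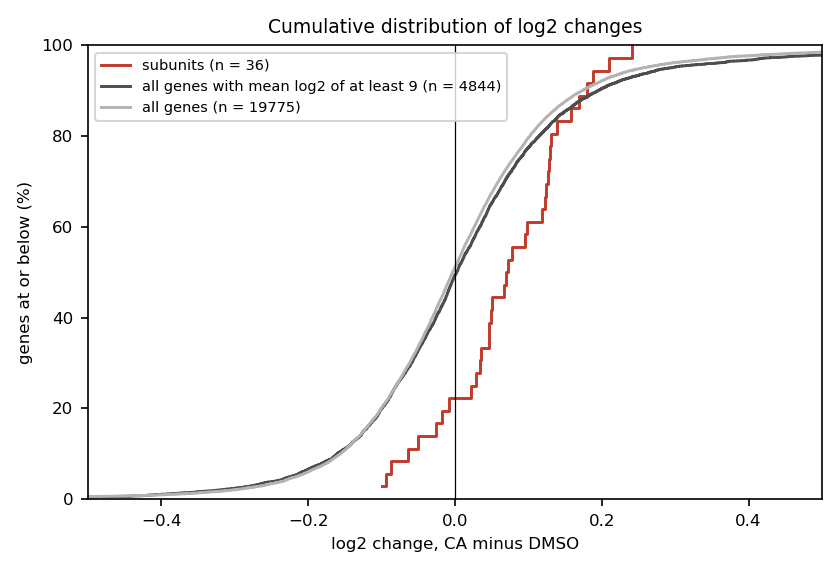
Share of genes (vertical axis, percent) with a log2 change (CA minus DMSO) at or below the value on the horizontal axis, for the 36 subunits, the 4844 genes whose mean log2 value reached 9 and all 19775 genes. The subunit curve lies to the right of both others around 0 and ends at 0.24, while the other curves have longer tails on both sides.

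The promoters of the 5 called members are shown because proteasome genes are known to share short control sequences, among them the CCAAT box, bound by NF-Y, and the antioxidant response element, bound by NFE2L1 and NFE2L2 with a small MAF partner. Each line gives 250 bases before the start and 30 after it, 5′ to 3′ on the strand of the gene, from RefSeq on GRCh38.p14. Capitals mark CCAAT or TGACNNNGC, the core of the antioxidant response element, on either strand.
PSMA5 (chr1:109426419-109426698, minus strand): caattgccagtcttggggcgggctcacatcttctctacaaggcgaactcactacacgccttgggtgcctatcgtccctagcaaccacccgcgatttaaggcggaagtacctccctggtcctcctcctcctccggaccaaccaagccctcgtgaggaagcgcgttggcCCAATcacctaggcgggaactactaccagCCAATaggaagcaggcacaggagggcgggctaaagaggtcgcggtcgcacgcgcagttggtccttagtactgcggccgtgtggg
PSMA2 (chr7:42932145-42932424, minus strand): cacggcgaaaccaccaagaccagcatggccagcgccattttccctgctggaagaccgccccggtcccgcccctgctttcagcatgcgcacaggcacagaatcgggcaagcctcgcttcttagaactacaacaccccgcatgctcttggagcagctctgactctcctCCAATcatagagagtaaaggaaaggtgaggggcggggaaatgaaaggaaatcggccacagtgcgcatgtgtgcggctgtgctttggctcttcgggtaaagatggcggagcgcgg
PSMB2 (chr1:35641497-35641776, minus strand): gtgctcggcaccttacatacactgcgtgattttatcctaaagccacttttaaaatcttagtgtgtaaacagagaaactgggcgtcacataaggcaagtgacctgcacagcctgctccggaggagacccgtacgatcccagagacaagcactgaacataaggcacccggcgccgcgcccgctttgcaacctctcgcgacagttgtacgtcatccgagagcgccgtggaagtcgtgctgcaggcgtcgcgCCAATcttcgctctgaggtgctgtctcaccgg
PSMD2 (chr3:184298991-184299270, plus strand): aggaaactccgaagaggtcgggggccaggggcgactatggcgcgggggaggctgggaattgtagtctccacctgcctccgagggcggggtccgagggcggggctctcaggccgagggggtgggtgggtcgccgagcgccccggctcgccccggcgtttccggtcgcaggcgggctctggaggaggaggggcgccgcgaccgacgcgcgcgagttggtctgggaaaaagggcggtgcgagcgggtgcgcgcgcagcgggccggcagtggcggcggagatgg
ADRM1 (chr20:62302646-62302925, plus strand): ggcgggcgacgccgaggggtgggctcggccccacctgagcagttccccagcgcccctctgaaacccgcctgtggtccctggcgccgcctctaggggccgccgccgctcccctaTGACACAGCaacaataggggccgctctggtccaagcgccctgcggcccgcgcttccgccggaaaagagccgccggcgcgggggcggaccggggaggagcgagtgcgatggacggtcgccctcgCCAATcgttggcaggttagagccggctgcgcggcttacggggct
PSMA5 holds CCAAT at -83 and at -54 from the start, PSMA2 at -84, PSMB2 at -2 and ADRM1 at -14, and ADRM1 also holds TGACNNNGC at -137. PSMD2 and ADRM1 each have another listed start, whose window is not shown. Counted from that start, ADRM1 holds CCAAT at -115 and TGACNNNGC at -238. Neither motif is in the windows of PSMD2, and these letters say nothing about which factors bind there.

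Of the 36 members, 31 matched the promoter table, and where a gene had several starts any of its windows counted. CCAAT was in 16 of the 31 (51.6%), in 4 of the 5 called members and in 12 of the 26 uncalled ones (46.2%), against 38.7% of all genes of the table. TGACNNNGC was in 8 members (25.8%), of which 1 was called, against 14.9% of all genes. The 2 motifs do not overlap in the windows shown. The core of the interferon-stimulated response element, GAAA, then any 2 bases, then GAAA, was in 2 members (6.45%), PSMA4 and PSMB4, neither of them called, against 4.15% of all genes. These are matches of letters and not measured binding.

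In the alpha ring, 2 of 7 measured members rose, 0 fell and 5 did not pass the test. Of all genes, 6.64% were called higher and 4.49% lower, and of those whose mean log2 value reached 9, 12.3% and 8.38%. Each part of the complex holds few genes, so its count of calls is not a result about that part. PSMA5 was at 11.92, 11.91 and 11.95 in the CA samples, against 11.68, 11.67 and 11.70 in the DMSO samples (log2 intensity). Every CA value lay above every DMSO value, and the gap between the groups was wider than the range within either. The log2 change was 0.24 (SE 0.04, limma adjusted p = 0.00845), a 1.18-fold rise, and it was the largest among the members. PSMA2 was at 12.44, 12.40 and 12.46 in CA, against 12.24, 12.24 and 12.25 in DMSO, again without overlap. It rose 1.14-fold (log2 change 0.19, SE 0.04, limma adjusted p = 0.0203). The 5 uncalled members ranged from -0.05 for PSMA1 to 0.13 for PSMA4, whose groups did not overlap. PSMA8, the alpha subunit of male germ cells, averaged 3.27 ± 0.11 in CA and 3.15 ± 0.06 in DMSO (SD, n = 3 each). It lay below the lower quartile of the arrays (4.11 to 4.14), where array values have no clear reading. PSMA6 was not analysed here, since its probe sets are annotated to more than 1 gene.

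The catalytic subunits of the beta ring showed no call. PSMB5, which carries the chymotrypsin-like site, was at 10.98, 11.02 and 11.00 in CA, against 10.97, 10.91 and 10.88 in DMSO. The groups nearly touched, and the change of 0.08 (95% confidence interval -0.02 to 0.18) had a limma adjusted p = 0.305. PSMB6, the caspase-like subunit, was at 11.38, 11.51 and 11.51 in CA, against 11.46, 11.46 and 11.40 in DMSO, with the groups overlapping. Its change was 0.03 (-0.09 to 0.15). PSMB7, the trypsin-like subunit, was at 12.01, 12.02 and 12.03 in CA, against 12.00, 11.99 and 11.97 in DMSO, with a small gap between the groups and a change of 0.03 (-0.05 to 0.12). The intervals leave room for changes of up to 0.18 on the log2 scale, and the misses do not show that these transcripts were the same in both groups.

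Of the 4 beta subunits without a proteolytic site, 1 rose, where 6.64% of all genes were called higher. PSMB2 was at 12.18, 12.19 and 12.21 in CA, against 12.03, 12.00 and 12.00 in DMSO, with no overlap. The rise was 1.13-fold (0.18, SE 0.03, limma adjusted p = 0.0220). PSMB4 (0.10), PSMB1 (0.07) and PSMB3 (0.04) were not called, and PSMB3 overlapped between the groups.

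**Figure D3:**
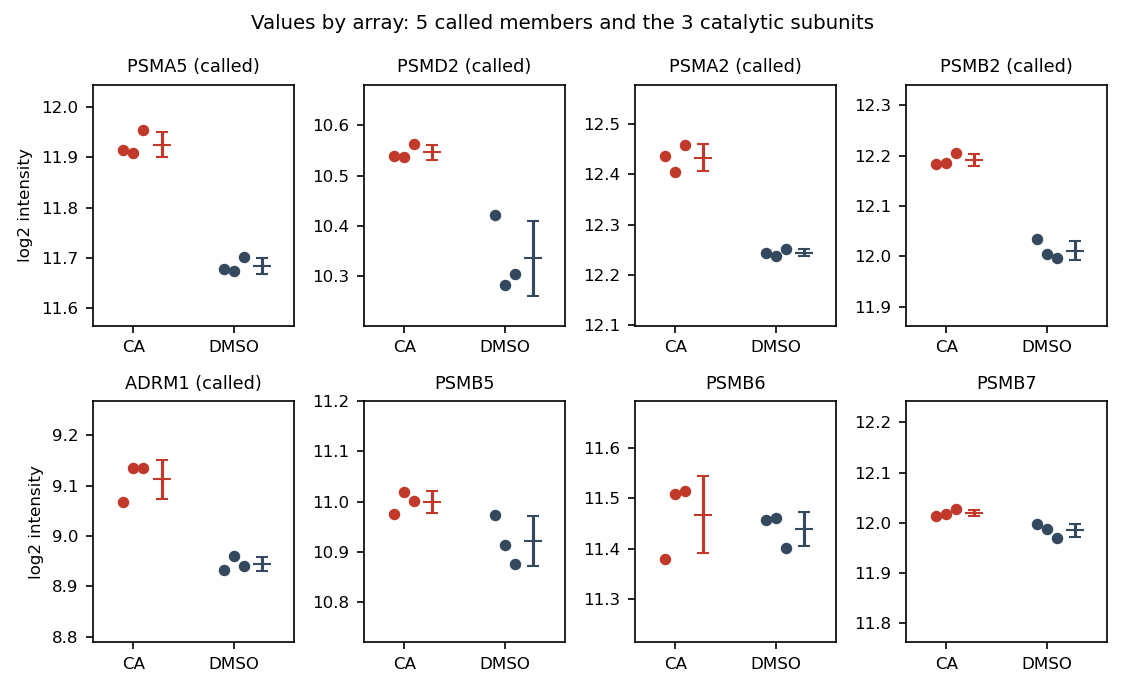
Log2 intensity (vertical axis) of each CA array (red, left) and DMSO array (dark, right) for the 5 called members and the catalytic subunits PSMB5, PSMB6 and PSMB7; the bars beside the points are the mean ± SD (n = 3). All panels span the same log2 range, so that the gap of 0.24 for PSMA5 can be set against 0.03 for PSMB6 and PSMB7.

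The 19S base held the other calls, PSMD2 and ADRM1. They were 2 of its 4 measured subunits that are not ATPases, where 6.64% of all genes were called higher. PSMD2, the scaffold on which shuttle factors and the deubiquitinase USP14 dock, was at 10.54, 10.54 and 10.56 in CA, against 10.42, 10.28 and 10.30 in DMSO. The CA values were close together and DMSO replicate 1 was the nearest to them. PSMD2 rose 1.16-fold (0.21, SE 0.05, limma adjusted p = 0.0380). ADRM1, a ubiquitin receptor that anchors the deubiquitinase UCHL5, was at 9.07, 9.14 and 9.14 in CA, against 8.93, 8.96 and 8.94 in DMSO, without overlap. ADRM1 rose 1.12-fold (0.17, SE 0.04, limma adjusted p = 0.0380). PSMD4, the other ubiquitin receptor of the base, was at 0.12 (95% confidence interval 0.02 to 0.21, adjusted p = 0.124). PSMD1, a scaffold, was at 0.05 with overlapping groups.

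None of the 5 measured ATPases of the base was called, and at an unadjusted p under 0.05 limma put 1 higher, PSMC4 (0.14, adjusted p = 0.120), and 0 lower. Of all genes, 6.64% were called higher, so 0 calls among so few ATPases or lid genes do not set them apart. PSMC2 (0.07), PSMC1 (0.05) and PSMC6 (0.02) lay above 0 and PSMC3 at -0.09, where every CA value was below every DMSO value. None of the 6 measured lid subunits was called either, although PSMD12, a lid scaffold, came nearest of all uncalled members (0.16, adjusted p = 0.0527). PSMD12 was at 11.74, 11.72 and 11.80 in CA, against 11.56, 11.61 and 11.61 in DMSO, so that its groups did not overlap. PSMD11 was at 0.13 (adjusted p = 0.182) and PSMD3 at 0.05. The deubiquitinase of the lid, PSMD14, was at -0.03 (95% confidence interval -0.11 to 0.06), PSMD8 at -0.02 and PSMD6 at -0.01, all with overlapping groups. By limma without adjustment, 2 lid genes, PSMD12 and PSMD11, had a p under 0.05, where 13.6% of all genes were higher. PSMC5, PSMD7 and PSMD13 were not analysed here.

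Assembly factors among the members moved to both sides of 0 with no call. POMP, the chaperone that guides assembly of the core, was at 13.05, 13.02 and 13.09 in CA, against 12.91, 12.92 and 12.94 in DMSO, a change of 0.13 (adjusted p = 0.0829). The 19S chaperones PSMD5, PSMD10 and PSMD9 were at 0.07, -0.06 and -0.09. The activators PSME3 and PSME4, which bind the core in place of the 19S cap, were at 0.13 (adjusted p = 0.221) and 0.12 (adjusted p = 0.205), both with CA values above all DMSO values. PSMF1, known as an inhibitor of the core in vitro, had the lowest change of all members. It was at 10.07, 10.07 and 9.94 in CA, against 10.15, 10.09 and 10.15 in DMSO. The values did not overlap, but the change of -0.10 (95% confidence interval -0.22 to 0.02) was not called (adjusted p = 0.283).

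Across the arrays the upward shift did not rest on 1 sample. In CA replicates 1, 2 and 3, 28, 29 and 29 of the 36 members lay above their own mean over the 6 arrays, against 13, 9 and 8 in DMSO replicates 1, 2 and 3. The median deviation of the members was 0.02, 0.04 and 0.04 in the CA samples, against -0.01, -0.05 and -0.03 in the DMSO samples. DMSO replicate 1 lay nearest to the CA samples. The median deviation of all genes was between -0.00581 and 0.00781 on every array. The calls of single members were less firm. With any 1 of the 6 arrays left out (CA replicate 1, 2 or 3, DMSO replicate 1, 2 or 3), 1 or 2 members were called in place of 5 (2.78% to 5.56%, where 3.65% to 4.29% of all genes were higher in those fits). PSMA5 kept its call in all 6 such fits (adjusted p of 0.0327 to 0.0377), and PSMD2 without DMSO replicate 1 alone (0.0268). PSMA2 (0.0535 to 0.0739), PSMB2 (0.0551 to 0.0842) and ADRM1 (0.0553 to 0.123) lost theirs in all 6 fits. When the variance was moderated along intensity, with robust estimation, 15 members were higher (41.7%) and 0 lower. In that fit, 10.7% of all genes were higher and 8.57% lower, and 23.6% were higher of those whose mean log2 value reached 9.

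The rises also depended on which probe set of a gene was read. The 36 members had 72 probe sets, and 22 members had more than 1. Of the 36 probe sets that were not used, 22 changed in the same direction as the used one and 14 in the opposite one, and in the test per probe set 0 of them passed in either direction, where 3.83% of all probe sets were higher (limma). Of the 28 unused ones whose mean log2 value reached 6, 13 pointed the opposite way. Of the 5 called members, PSMA5 and PSMA2 kept their calls on the used probe set in that test, while PSMB2 (adjusted p = 0.0512), PSMD2 (0.0657) and ADRM1 (0.0778) lost theirs. The second probe set of PSMA5 was at -0.15 (7.21 in CA, 7.36 in DMSO, adjusted p = 0.228), with the CA values all below the DMSO values. That of PSMA2 was at 0.05, and the other 3 of PSMB2 were at -0.04, -0.16 and 0.13. PSMD2 and ADRM1 had 1 probe set each. PSMC2, which carried an uncalled change of 0.07 on its brightest probe set, had others at -0.19 and -0.24, while the unused sets of PSMD4 (0.11, 0.11 and 0.01) and PSMB4 (0.09 and 0.20) pointed the same way as the used ones. On the mean of all probe sets, 2 members were called, PSMD2 and ADRM1 (5.56%, near the 5.23% of all genes higher in that fit), and PSMA5 was at 0.05 (adjusted p = 0.592).

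**Figure D4:**
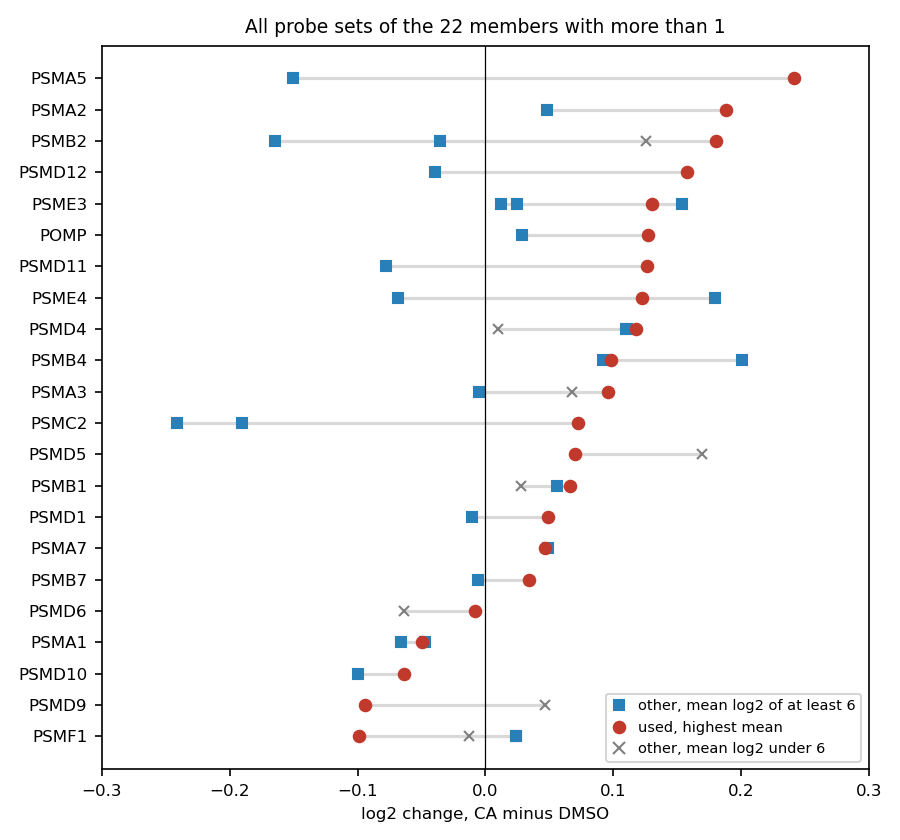
Log2 change (CA minus DMSO, horizontal axis) of every probe set of the 22 members with more than 1; red circles are the brightest set, which was used, blue squares other sets whose mean log2 value reached 6 and grey crosses dimmer ones. The sets of PSMD4, PSMB4 and PSMA1 lie on the same side of 0, while those of PSMA5, PSMB2 and PSMC2 lie on both sides.

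Inducible proteasome genes, which stand outside the members, are given beside them. Of the 4 measured (PSMB8, PSMB9, PSMB10 and the activator subunit PSME1), 3 rose and 0 fell, with a median of 0.20. Of all genes, 6.64% were called higher and 4.49% lower, and of those whose mean log2 value reached 9, 12.3% and 8.38%. PSMB9 was at 10.75, 10.83 and 10.82 in CA, against 10.46, 10.43 and 10.44 in DMSO, a 1.28-fold rise (0.35, SE 0.04, limma adjusted p = 0.00278). PSMB10 rose 1.15-fold (0.20, adjusted p = 0.0191) and PSME1 1.15-fold (0.21, adjusted p = 0.0205). PSMB8 was at 0.03 (95% confidence interval -0.07 to 0.12, adjusted p = 0.756). PSME2 was not analysed here. The interferon-stimulated core was in the promoter windows of 3 of these 4 genes, PSMB8, PSMB10 and PSME1, against 4.15% of all genes. It was absent from the window of PSMB9. PSMB8 has another listed start, whose window does not hold it. Any part of this motif in the changes was not tested. PSMB10 lost its call with each array except CA replicate 1 and DMSO replicate 2 left out, and PSME1 with each except DMSO replicate 1, while PSMB9 kept it in all 6 fits.

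Each inducible subunit takes the place of 1 constitutive subunit, and the difference between their changes was tested within arrays. The log2 intensity of PSMB9 minus that of PSMB6 was -0.63, -0.68 and -0.70 in CA, against -0.99, -1.03 and -0.96 in DMSO. The 2 groups were far apart for their spread, and the difference in change was 0.33 (exact permutation p = 0.1, two-sided, adjusted p = 0.15 over 3 pairs). PSMB10 minus PSMB7 was -0.59, -0.55 and -0.55 in CA, against -0.74, -0.70 and -0.72 in DMSO, also without overlap, a difference of 0.16 (exact permutation p = 0.1, adjusted p = 0.15). For PSMB8 minus PSMB5 the groups overlapped, with a mean of 0.73 ± 0.03 in CA and 0.78 ± 0.04 in DMSO (SD, n = 3 each) and a difference of -0.05 (exact permutation p = 0.2, adjusted p = 0.2). With 3 against 3 arrays an exact p cannot go below 0.1, so that no pair could pass 0.05. The sign of such a log2 value depends on the probes and says nothing of which subunit is the more abundant.

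**Figure D5:**
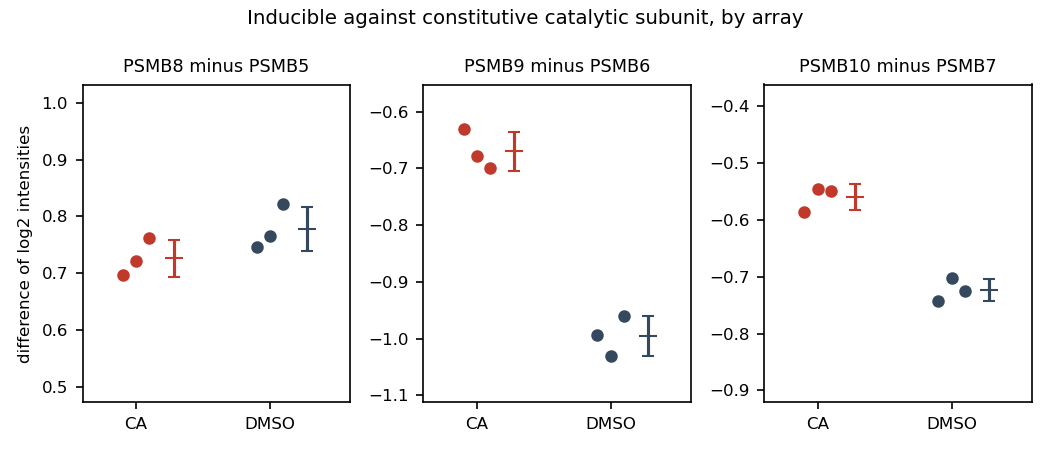
Log2 intensity of the inducible minus the constitutive subunit (vertical axis) on each CA array (red, left) and DMSO array (dark, right), with mean ± SD (n = 3). The CA points lie above all DMSO points for PSMB9 minus PSMB6 and PSMB10 minus PSMB7 and overlap them for PSMB8 minus PSMB5.

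Of 9 measured genes on a further list, which holds assembly factors among others but none of the members, 3 rose and 0 fell, with a median of 0.08. Of all genes, 6.64% were called higher and 4.49% lower, and of those whose mean log2 value reached 9, 12.3% and 8.38%. ECPAS, which tethers the core to the cap, was at 10.57, 10.74 and 10.66 in CA, against 10.40, 10.43 and 10.40 in DMSO, a 1.19-fold rise (0.25, adjusted p = 0.0302). PSMG1, an assembly chaperone of the alpha ring, rose 1.17-fold (0.22, adjusted p = 0.0194), and PAAF1, which binds free 19S ATPases, rose 1.17-fold (0.22, adjusted p = 0.0159). PSMG4, a chaperone of the same kind as PSMG1, was at 0.20 (adjusted p = 0.0581). When probe sets with the suffix _x_at or _s_at, made to match more than 1 transcript, were dropped, PAAF1 was at 0.07 (adjusted p = 0.605). On the mean of all its probe sets, ECPAS was at 0.13 (adjusted p = 0.126) and PAAF1 at 0.15 (adjusted p = 0.130), both uncalled. Each of the 3 calls was lost in some fits on 5 arrays: PAAF1 without CA replicate 1 or 3 or DMSO replicate 3, PSMG1 with each except CA replicate 1 (adjusted p of up to 0.0662 for PAAF1 and 0.0657 for PSMG1), and ECPAS likewise with each except CA replicate 1 (adjusted p of at least 0.0774 in those fits).

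Of 11 measured regulators of proteasome genes, 2 rose and 0 fell (18.2% higher), with a median of -0.00415. Of all genes, 6.64% were called higher and 4.49% lower. MAFF, a small MAF protein that pairs with the NFE2 family, was at 6.91, 6.90 and 6.93 in CA, against 6.36, 6.30 and 6.22 in DMSO. The rise was 1.54-fold (0.62, SE 0.05, limma adjusted p = 6.46e-04). NFE2L3, a relative of NFE2L1, was at 6.89, 6.84 and 7.01 in CA, against 6.34, 6.43 and 6.40 in DMSO, a 1.44-fold rise (0.52, SE 0.06, adjusted p = 0.00245). Both changes were larger than that of any constitutive subunit, and both stayed called in all 6 fits with an array left out. NFE2L1 itself was not called, with a change of 0.07 (-0.05 to 0.18 as 95% confidence interval, adjusted p = 0.471). NFE2L2 changed by -0.00415 (-0.10 to 0.09). Of 14 factors that bind the proteasome, 0 were called by limma in either direction, with a median of 0.04. At an unadjusted p under 0.05, 2 were higher and 0 lower, against 13.6% higher and 11.7% lower of all genes. Of 12 genes of the unfoldase p97 and its cofactors, 1 rose, the deubiquitinase YOD1 (0.19, adjusted p = 0.0497), and 0 fell. That share of 8.33% was near the 6.64% of all genes. YOD1 lost its call in all 6 fits on 5 arrays (0.0757 to 0.135 as adjusted p). Of the 4 measured ubiquitin and E1 genes, 0 were called, with 0 at an unadjusted p under 0.05 by limma.

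The arrays themselves were alike. Arrays of a group correlated at r = 0.998 over probe sets and arrays of different groups at 0.996 to 0.997, values over probe sets that are not independent. The difference of the 3' and 5' GAPDH control probe sets, a sign of RNA integrity, was 0.48 ± 0.05 in CA and 0.38 ± 0.02 in DMSO (SD, n = 3 each; exact permutation p = 0.1, the smallest possible). It moved with the groups as the small subunit changes did, and its part in them was not tested. The same difference for ACTB was 2.38 ± 0.07 in CA and 2.27 ± 0.13 in DMSO (SD, n = 3 each; exact permutation p = 0.3), with overlapping groups. In these bulk samples, array values are relative to the RNA loaded, so that fewer cells of a state and less of a transcript per cell cannot be told apart. Of 6 measured markers of the leukaemia line, all lay above the lower quartile of the arrays and 4 (FLT3, MEIS1, MPO and CD4) above their median. MEIS1 was called higher (0.25, means of 9.95 in CA and 9.70 in DMSO, limma adjusted p = 0.0179) and CD4 lower (-0.21, means of 7.02 in CA and 7.23 in DMSO, adjusted p = 0.0489). FLT3 (0.03), MPO (0.06), ANPEP (0.25) and ITGAX (-0.20) were not called. Of the 5 measured markers of other cells, 4 also lay above the lower quartile, so that level did not set the leukaemia markers apart. The 5 were the lymphoid CD3E and MS4A1, the epithelial EPCAM and KRT19 and the stromal COL1A1. Of them, 0 were called by limma (1 higher and 0 lower at an unadjusted p under 0.05), and COL1A1 alone lay above the median of the arrays. No erythroid marker was analysed here.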

How the data were processed

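RNA was measured in 3 CA and 3 DMSO samples of MOLM-14 cells on 1 array each. The authors deposited 1 log2 intensity for each probe set and array, made with RMA in affy, per the submitters' processing notes. RMA corrects background, normalizes across arrays and compresses large changes. The sources used here give neither tool versions nor the RNA kit of each sample. Of 54675 probe sets, 41091 had 1 gene symbol in the platform annotation and 1801 had several and named no gene, and 11721 were unnamed here. Symbols were updated by Entrez number through RefSeq (GRCh38.p14), where 41037 matched. Each gene was read on the probe set with the highest mean over the 6 arrays, with no filter on level. A symbol counted as a member only where nothing followed the number.

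CA and DMSO were compared with lmFit and eBayes of limma 3.58.1 (R 4.3.3) on all 19775 genes, two-sided, with Benjamini-Hochberg adjustment over all of them and a threshold of 0.05. The fit was also run on simulated data, where the check required only that changes far larger than those of the members be called. That requirement does not bear on changes as small as these. Smaller changes were also simulated, and how many of them were called is not given here. Pairs of subunits were compared by exact permutation tests. Values per array are given for called members, PSMB5, PSMB6, PSMB7 and the members with the largest change in each direction. Of the related lists, called genes, PSMB8, PSMB9, PSMB10, PSME1, NFE2L1 and NFE2L2 are named. PSMD12, POMP and PSMG4 were singled out after their values were seen. The members and lists were chosen with earlier results of these data known. Alternatives were other probe set choices, filters, normalizations, moderations and thresholds, fits on 5 arrays and a block for replicate number. The number of arrays limits the precision, and the 95% confidence intervals of the members were 0.08 to 0.16 wide on either side of the change.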

Additional observations from a re-analysis of the deposited data

How the results depend on the processing

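No alternative run called a constitutive subunit lower. When symbols with a suffix were counted, an alternative chosen after seeing the data, PSMC3IP and the divergent transcripts PSMD7-DT and PSMD14-DT made 39 genes, with 5 higher and 1 lower, PSMD14-DT. The 5 higher members became 2 on the mean of all probe sets, 1 on the probe set of largest variance, 1 when sets with the suffix _x_at or _s_at were dropped (28 members measured), 12 at a mean log2 of at least 6, 15 with an intensity trend and robust moderation, 1 with the replicate block, 1 at an adjusted p under 0.01, 8 under 0.1 and 0 at 1.2-fold or more (limma, where 13 were higher at an unadjusted p under 0.05 with no fold limit, against 13.6% of all genes). With an array left out 1 to 2 were called. After centring on 10 reference genes 4 were called (11.1%, where 5.74% of all genes were higher). ADRM1 was not among them (limma adjusted p = 0.0582). Of the 10 reference genes, 1 was itself called higher and 1 lower in the main fit. The median change of the members was 0.035 to 0.086 over the alternatives. All genes called, 1314 higher and 888 lower, became 841 and 570 on the probe set of largest variance, 770 and 566 without _x_at or _s_at sets, 2119 and 1695 with trend and robust moderation, 716 and 402 with the replicate block, 573 and 312 under 0.01, and 795 and 454 at 1.2-fold. At a mean log2 of at least 6, with 10997 genes tested, 1914 (17.4%) were higher and 1539 lower, and under 0.1, 1869 (9.45%) were higher and 1432 lower. On the mean of all probe sets 1035 were higher and 718 lower. With an array left out, 721 to 848 were higher and 435 to 495 lower. Same-numbered CA and DMSO arrays deviated together with r = 0.02, 0.03 and 0.02 over genes. No array correlated best with the array of its own number, so the replicate numbers gave no pairing. Under the block PSMA5 was the 1 member called.

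PSMC2 turned direction without a call when all its probe sets were averaged (-0.12). On the set of largest variance this held for PSMC2 (-0.24), PSMB7 (-0.00536), PSMD1 (-0.010), PSMD9 (0.046), PSMF1 (0.024) and YOD1 (-0.084), and without _x_at or _s_at sets for PSMB2 (-0.16), PSMC2 (-0.19), PSMD11 (-0.078) and PSMF1 (0.024). With an array left out, PSMD8 ranged from -0.031 to 0.00247, PSMD6 from -0.017 to 0.00214 and NFE2L2 from -0.022 to 0.015. The causes were not tested. The pair differences kept their signs in every alternative run (-0.07 to -0.03 for PSMB8 against PSMB5, 0.31 to 0.34 for PSMB9 against PSMB6, 0.15 to 0.18 for PSMB10 against PSMB7 over the arrays left out). PSMB8 had no value without _s_at sets.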

Other observations

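Noncoding partners of subunit genes, which the choice of members leaves out, had changes below 0. PSMA3-AS1, the antisense partner of PSMA3, fell (-0.33, SE 0.04, limma adjusted p = 0.00356), with means of 9.18 in CA and 9.51 in DMSO, while PSMA3 was at 0.10. PSMB8-AS1 was at -0.18 (adjusted p = 0.0585) and PSMD6-AS2 at -0.12 (adjusted p = 0.269). PSMD14-DT was called lower (-0.24, adjusted p = 0.0159) at means of 3.14 in CA and 3.38 in DMSO, dim values at which a size is uncertain. PSMC3IP, a factor of meiotic recombination named for binding PSMC3 and not itself a subunit, was at -0.08 (adjusted p = 0.456). These genes were picked after their values were seen, and no difference from the subunits was tested.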
